A study of Homo sapiens with 24 samples.

Results

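The response to interferon gamma (IFNγ) of renal carcinoma cells carrying a control siRNA was read from 6 libraries labelled 786-O, out of 24 libraries in the series. In the 3 Cnsi libraries the cells had been transfected with a scrambled, non-targeting siRNA pool at 20 nM and left without IFNγ. In the 3 Cnsi IFNγ libraries the same transfection was followed, after 24 hours, by IFNγ at 50 ng/mL for 24 hours more. These 6 libraries were picked out by their labels of cell line, siRNA and treatment. The series also holds PD-L1si groups, which received siRNA against PD-L1 with or without IFNγ, and the same 4 groups for a line labelled A498, each with 3 replicates. 786-O and A498 are established human lines of clear cell renal cell carcinoma. Per the labels, lines that stably express Renilla luciferase were made by lentiviral transduction and puromycin selection. The paper names these luciferase lines for its co-culture experiments and does not say whether the sequenced cells were of them. Each condition is represented by 1 cell line in culture. The labels do not say whether the 3 replicates came from separate cultures, so that p-values measure the spread between these libraries, which may be technical.

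The line label carries a doubt. In the study's own tables the comparison of these libraries appears under the name A498, and the comparison of the libraries labelled A498 appears under the name 786-O. Which of both lines these 6 libraries hold could not be settled from the sources used here, and they are called the libraries labelled 786-O throughout. *PAX8*, a transcription factor of kidney epithelium and its tumours, was at 214 ± 8.95 CPM (counts scaled to the size of each library, mean ± SD, n = 3) in the Cnsi libraries and 247 ± 18.9 in the Cnsi IFNγ libraries. *VIM*, *KRT8* and *KRT18*, which encode vimentin and a pair of simple epithelial keratins, were at 1617, 1376 and 564 CPM without IFNγ. Of 15 leukocyte markers, 5 had enough counts to be tested, and their summed level was 6.17 to 7.40 CPM in the Cnsi and 11.9 to 12.7 in the Cnsi IFNγ libraries, most of it from *ITGAM*. For 8 endothelial markers, 3 of them tested, the sum was 0.357 to 0.512 CPM in the Cnsi and 1.10 to 1.37 in the Cnsi IFNγ libraries, and for 7 markers of fibroblasts and pericytes, 3 of them tested, it was 6.18 to 6.34 CPM in the Cnsi and 4.77 to 5.95 in the Cnsi IFNγ libraries. *PTPRC*, the pan-leukocyte marker, and *CDH5*, which defines endothelium, stayed under the count minimum, and *SPI1*, *CD3D* and *VWF* were not measured (listed at 0 in all 12 libraries), so that they say nothing of these cells. *ITGAM* itself rose. The part of other cells in the results was not tested.

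IFNγ is a cytokine made by activated T cells and natural killer cells. It binds a receptor on the target cell that activates the kinases JAK1 and JAK2, and these activate transcription factors of the STAT family. STAT dimers bind DNA at gamma-activated sequences (GAS), and among their first targets are further transcription factors, of which IRF1 acts on interferon-stimulated response elements (ISRE). The response of epithelial tumour cells is known for raised antigen presentation on MHC class I, for newly made MHC class II, for chemokines that draw T cells, for antiviral and antimicrobial proteins, for the tryptophan-degrading enzyme IDO1 and for PD-L1, the ligand of the T cell checkpoint receptor PD-1.

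The sequence of both elements can be seen in front of genes that rose. The 250 bases before the start annotated in RefSeq (build GRCh38.p14) are printed for 7 genes, 5′ to 3′ on the strand of the gene. Matches to a GAS (TTCNNNGAA) or to an ISRE core (GAAANNGAAA, or TTTCNNTTTC as read on the other strand) are in capitals. The gene spans given below are from another annotation, GENCODE, and its starts can differ. The windows of *IRF1* and *IGFBP3* lie inside those spans. The first pair, from *IRF1* (chr5:132490774-132491023, minus strand) and from *ICAM1* (chr19:10270870-10271119, plus strand), holds a GAS. The next 4, from *CXCL9* (chr4:76007510-76007759, minus strand), *CXCL10* (chr4:76023498-76023747, minus strand), *TAP1* (chr6:32853705-32853954, minus strand) and *B2M* (chr15:44711267-44711516, plus strand), hold ISRE cores. The last, from *IGFBP3* (chr7:45921273-45921522, minus strand), belongs to the most abundant of the 20 leading lowered genes and holds no match to either pattern.
IRF1: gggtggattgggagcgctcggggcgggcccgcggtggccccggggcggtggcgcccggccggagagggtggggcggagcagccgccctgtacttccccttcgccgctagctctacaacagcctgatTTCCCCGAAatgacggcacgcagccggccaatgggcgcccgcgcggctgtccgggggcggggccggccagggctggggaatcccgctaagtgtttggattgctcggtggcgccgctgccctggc
ICAM1: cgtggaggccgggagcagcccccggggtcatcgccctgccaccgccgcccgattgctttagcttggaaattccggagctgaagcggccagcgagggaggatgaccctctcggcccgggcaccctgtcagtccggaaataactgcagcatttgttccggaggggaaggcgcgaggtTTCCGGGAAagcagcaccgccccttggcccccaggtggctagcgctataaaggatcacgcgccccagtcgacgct
CXCL9: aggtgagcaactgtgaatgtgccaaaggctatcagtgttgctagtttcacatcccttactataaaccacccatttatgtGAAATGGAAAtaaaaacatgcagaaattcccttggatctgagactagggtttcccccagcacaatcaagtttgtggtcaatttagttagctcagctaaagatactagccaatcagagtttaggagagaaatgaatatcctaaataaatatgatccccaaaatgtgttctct
CXCL10: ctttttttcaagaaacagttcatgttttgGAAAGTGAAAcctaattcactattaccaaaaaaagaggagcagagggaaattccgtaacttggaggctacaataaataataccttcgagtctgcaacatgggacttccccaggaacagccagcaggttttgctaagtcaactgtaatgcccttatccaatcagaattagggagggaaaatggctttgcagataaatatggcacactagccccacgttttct
TAP1: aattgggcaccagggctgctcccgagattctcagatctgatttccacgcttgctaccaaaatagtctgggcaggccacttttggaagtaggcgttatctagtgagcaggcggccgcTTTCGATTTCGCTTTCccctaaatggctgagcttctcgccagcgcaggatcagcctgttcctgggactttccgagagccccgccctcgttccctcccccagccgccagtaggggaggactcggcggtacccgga
B2M: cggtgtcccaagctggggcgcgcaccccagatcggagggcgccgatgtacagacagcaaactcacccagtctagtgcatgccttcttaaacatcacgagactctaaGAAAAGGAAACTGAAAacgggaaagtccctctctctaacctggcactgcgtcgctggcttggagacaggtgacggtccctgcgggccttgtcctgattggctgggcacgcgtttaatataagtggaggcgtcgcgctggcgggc
IGFBP3: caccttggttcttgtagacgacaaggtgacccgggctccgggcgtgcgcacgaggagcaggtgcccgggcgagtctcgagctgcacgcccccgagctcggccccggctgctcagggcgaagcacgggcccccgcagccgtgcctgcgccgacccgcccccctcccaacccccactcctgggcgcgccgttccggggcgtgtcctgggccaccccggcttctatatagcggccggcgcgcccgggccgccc

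Counted back from the start, the match in *IRF1* ran from 124 to 116 bases before the start and that in *ICAM1* from 75 to 67 bases before it. The ISRE core of *CXCL10* began 221 bases and that of *CXCL9* 171 bases before the start, while *TAP1* and *B2M* each held a pair of overlapping cores. Over windows of 300 bases (250 before and 50 after the start), 3.65% of the 27305 promoters in the RefSeq table held an ISRE core and 7.88% held a GAS match. An ISRE core was found in 9.99% of the 1371 raised genes with a promoter in the table, in 1.62% of 927 lowered genes and in 2.24% of 9593 genes that were not called. The share was 21.5% among the 209 raised genes past a log2 fold change of 3. GAS matches stood in 9.19% of raised, 4.75% of lowered and 6.07% of uncalled genes. Among the leading genes with a promoter in the table, 4 of 8 raised and 2 of 13 lowered ones held a match to either pattern. The printed promoters, with a match in every raised gene and none in the lowered one, thus do not stand for all leading genes. These matches describe letters in a window and are not measurements of binding.

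The total counts of the 6 libraries ran from 26807875 to 30245244. Of the 39321 genes in the table, 4670 (11.9%) were at 0 in all 12 libraries labelled 786-O and count as not measured there. They include *STAT3*, *JAK2*, both chains of the IFNγ receptor, *PSMB8*, *TAP2*, *TAPBP*, *OAS1* and *VEGFA*, and 1447 of them averaged at least 100 counts in the libraries labelled A498. Strands were not cleanly separated in the counts. Among 146 genes with at least 90% of their exonic bases inside a protein-coding gene of the other strand, the median ratio of their level per length to that of the other gene was 1.62, so that genes on opposite strands of one place cannot be told apart. Near-identical genes (the classical *HLA* genes, *HLA-DQA1* and *HLA-DQA2*, *C4A* and *C4B*, the *APOBEC3* and *GBP* families) may have lost or exchanged reads in mapping, and their values are less certain.

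IFNγ changed the level of 3914 of 21209 genes tested. 2347 rose (11.1% of the genes tested) and 1567 fell (7.39%) at an adjusted p under 0.05 and a change of more than 0.5 on the log2 scale, tested by quasi-likelihood in edgeR and adjusted after Benjamini and Hochberg. "Rose", "fell", "raised" and "lowered" are used below for genes past both limits. The shares of 11.1% and 7.39% are those to set beside each count of raised or lowered list members below. The raised side held the larger changes. 1290 genes rose by over 1 on the log2 scale, 393 by over 3 and 150 by over 5, while 588 fell by over 1, 30 by over 3 and 2 by over 5. The raised genes together took 8.47% to 8.73% of the counts in the Cnsi libraries and 16.8% to 17.5% in the Cnsi IFNγ libraries. The balance of both directions depends on scaling. With the counts scaled to library totals alone, the median over all genes moved from 0.0049 to -0.13 and 1832 genes rose while 2523 fell. All changes below are relative to the TMM scaling, under which the median gene stayed at 0.0049. 1570 of the raised genes were protein-coding and 569 were long noncoding RNAs. In 3785 of the 3914 called genes the 3 libraries with IFNγ did not overlap the 3 without, against 25.6% of all genes tested with every IFNγ library higher and 21.7% with every one lower.

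**Figure D1:**
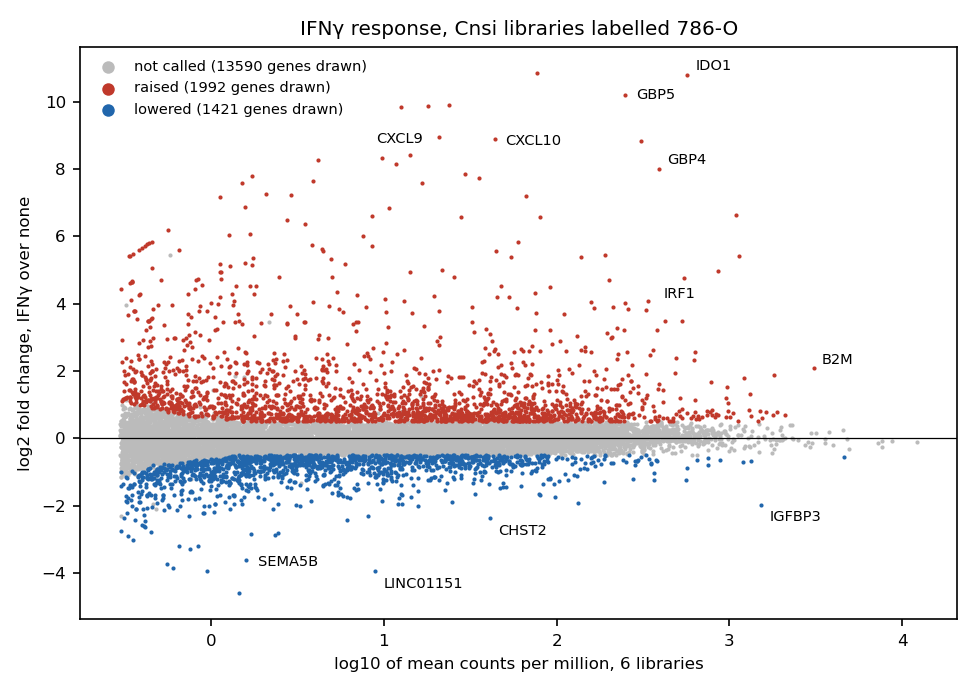
Log2 fold change of IFNγ over none (vertical axis) against the mean CPM over the 6 Cnsi libraries labelled 786-O (horizontal axis, log10), with each point a gene. 17003 genes with a mean of at least 0.3 CPM and counts in both groups are drawn, 1992 raised (red), 1421 lowered (blue) and 13590 not called (grey), and the raised genes reach further from 0 than the lowered ones.

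The leading raised genes came from near silence. *IDO1*, the enzyme that opens the breakdown of tryptophan to kynurenine, had 0.671, 0.608 and 0.617 CPM in the 3 Cnsi libraries and 1202, 1135 and 1087 in the 3 with IFNγ. The fit put this change at 10.81 ± 0.098 on the log2 scale (adjusted p = 1.5e-30). Here and after every other log2 change, ± is an approximate standard error, the change divided by the square root of the test's F statistic. It can be too small for large changes from few counts. *IDO1* had 56 counts over the Cnsi libraries, and *CXCL9* and *PIGR*, given below, had 7 each. *GBP5* (chr1:89256189-89272860 on GRCh38), a guanylate-binding GTPase that acts against intracellular microbes, went from 0.384, 0.643 and 0.240 to 495, 504 and 498.3 CPM (10.20 ± 0.11). Its neighbour *GBP4* (chr1:89181144-89198942) went from 3.13, 3.18 and 2.71 to 724, 819.6 and 794 (8.01 ± 0.088). In all 3 genes every library with IFNγ lay more than 100-fold above every library without it.

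Among the other leading genes, *CXCL10* (chr4:76021118-76023497) and *CXCL9* (chr4:76001275-76007509) encode chemokines for the receptor CXCR3 on activated T cells. *CXCL10* was at 0.160, 0.107 and 0.274 CPM without IFNγ and at 95.3, 89.5 and 79.6 with it (8.89 ± 0.14, adjusted p = 6.8e-26). *CXCL9* was at 0.0639, 0.0715 and 0.103 and 38.4, 44.9 and 41.8 (8.96 ± 0.16). Both were below 0.3 CPM in every library without IFNγ. *APOL4*, of the apolipoprotein L family, had 4 counts in all over the Cnsi libraries and 44.6, 49.1 and 49.9 CPM with IFNγ (9.91 ± 0.16). *PIGR*, the receptor that carries immunoglobulin A and M across epithelia, rose from 0.0794 to 28.5 CPM (8.41 ± 0.17), and *APOBEC3G*, a cytidine deaminase that restricts retroviruses, from 0.0569 to 19.4 (8.32 ± 0.24).

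Several leading genes had no count or up to 3 counts in the Cnsi group, and for these a bound or a ratio of counts is given in place of the fitted change. Against a floor of 3 counts over the group, *CCL8*, a chemokine of monocytes, was at least 105-fold higher with IFNγ. *CHRNA1*, the alpha subunit of the muscle acetylcholine receptor, was at least 131-fold higher, *GVINP1*, a pseudogene of the interferon-induced very large GTPases, at least 63.1-fold and the pseudogene ENSG00000226025 at least 416-fold higher. By the annotation used here, exons of other genes on the same strand cover 100% of the exonic bases of *GVINP1* and of ENSG00000226025. The counts of both may therefore not be theirs alone. *HLA-DOA*, an alpha chain that modulates class II peptide loading, had 2 counts in the Cnsi group and 23.1, 26.7 and 25.3 CPM with IFNγ, a ratio of 1106 (95% interval from counting error, 306 to 9137). *UBD*, which encodes the ubiquitin-like modifier FAT10, had no count without IFNγ and 7.42, 7.69 and 7.88 CPM with it, at least 226-fold higher. It shares 93.5% of its exonic bases with *OR2I1P* on the other strand, which went from 1.35 to 614 CPM (8.83 ± 0.079), and the reads of this pair cannot be told apart. The same holds for ENSG00000237568, which lies wholly inside *GBP5*, and in part for ENSG00000254287, with 19.8% of its exonic bases opposite *IDO1*.

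MHC class I rose as a group. This complex shows peptides from inside the cell to cytotoxic T cells. All 8 listed genes rose, with a median log2 fold change of 1.97 against 0.0049 over all genes tested. *B2M*, the light chain shared by all class I molecules, was the most abundant, with 1199.8, 1199 and 1127 CPM in the Cnsi and 5250.1, 4777 and 4856 in the Cnsi IFNγ libraries (2.08 ± 0.058, adjusted p = 1.8e-20). *HLA-B* went from 771, 738 and 821 to 2569, 3058 and 2894 (1.87 ± 0.056). *HLA-C* (1.31 ± 0.046) rose less than the nonclassical *HLA-E* (2.39 ± 0.054) and *HLA-F* (2.59 ± 0.061), and the largest change was that of *NLRC5* (3.89 ± 0.062), the transactivator of class I genes, at 26.2, 27.8 and 25.96 and 360.5, 406 and 421 CPM. *HLA-G* was near the limit of detection at 0.128 CPM without IFNγ, and its call was lost in 7 of 17 alternative fits.

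The machinery that feeds class I moved with it. Of 6 tested genes of peptide transport, trimming and loading, 5 rose. *TAP1*, a subunit of the transporter that carries peptides into the endoplasmic reticulum, went from 86.3, 84.3 and 91.6 to 863, 1046 and 1033 CPM (3.49 ± 0.063, adjusted p = 7e-24). The trimming peptidases *ERAP1* (1.26 ± 0.052) and *ERAP2* (1.71 ± 0.054), the tapasin-like *TAPBPL* (1.81 ± 0.07) and the disulfide isomerase *PDIA3* (0.75 ± 0.049) rose too, while *CANX*, the chaperone calnexin, had 0.18 ± 0.05. All 4 tested immunoproteasome genes rose. The inducible catalytic subunit *PSMB9* went from 39.7, 39.9 and 40.4 to 362, 347 and 342 CPM (3.13 ± 0.048) and *PSMB10* from 17.7 to 165 (3.23 ± 0.06), and the activator chains *PSME1* (1.75 ± 0.052) and *PSME2* (2.189 ± 0.049) rose less.

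Among 28 subunits of the standard proteasome, 11 rose and none fell, with a median log2 fold change of 0.40. The largest changes were in the alpha ring, in *PSMA4* (1.48 ± 0.055) and *PSMA5* (1.38 ± 0.07). *PSMB5*, *PSMB6* and *PSMB7* carry the catalytic sites that the inducible subunits replace. *PSMB5* had 0.097 ± 0.045 and *PSMB6* 0.35 ± 0.048, both short of the size limit, and *PSMB7* rose by 0.52 ± 0.049, a call lost in 5 of 17 alternative fits. At the limit of 0.5 many of these calls are narrow. 26 of the 28 had an adjusted p under 0.05 on the positive side whatever the size (21.7% of all genes tested), and 2 rose by over 1.

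MHC class II, which shows peptides from the endosome to helper T cells and is mainly made by professional antigen-presenting cells, was raised in 16 of 17 tested genes. The median log2 fold change was 5.46, or 4.22 with genes that had no count in the Cnsi group at their lower bound. *CIITA*, the master transactivator of class II, was already present, at 46.3, 47.9 and 44.3 CPM, and went to 246, 280.3 and 287 (2.56 ± 0.055, adjusted p = 8.1e-23). *CD74*, the invariant chain, went from 23.0, 19.7 and 22.0 to 1958, 2316 and 2209.7 (6.65 ± 0.073) and had the highest level of the group with IFNγ. *HLA-DRA* went from 9.94, 7.94 and 7.37 to 374, 372 and 367 (5.46 ± 0.078), and *HLA-DPA1* (5.83 ± 0.11), *HLA-DPB1* (5.57 ± 0.096) and *HLA-DRB1* (4.19 ± 0.078) also rose. *HLA-DMA* and *HLA-DMB*, which help to load class II, rose by 2.58 ± 0.06 and 4.22 ± 0.086. Of the RFX complex that binds class II promoters, *RFX5* rose by 1.49 ± 0.05 and *RFXANK* had 0.28 ± 0.053.

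Lysosomal genes that cut the invariant chain and antigens followed in part, 7 of 13 tested. *CTSS*, the cathepsin that removes the invariant chain in antigen-presenting cells, went from 34.6, 34.2 and 33.2 to 481, 490.0 and 486 CPM (3.84 ± 0.054). *LGMN* rose by 1.16 ± 0.061 and *CTSL* by 0.65 ± 0.051, and *LAMP3* went from 0.169 to 4.80 CPM (4.79 ± 0.24). The common lysosomal membrane genes *LAMP1* (0.16 ± 0.05) and *LAMP2* (0.063 ± 0.054) were not called.

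**Figure D2:**
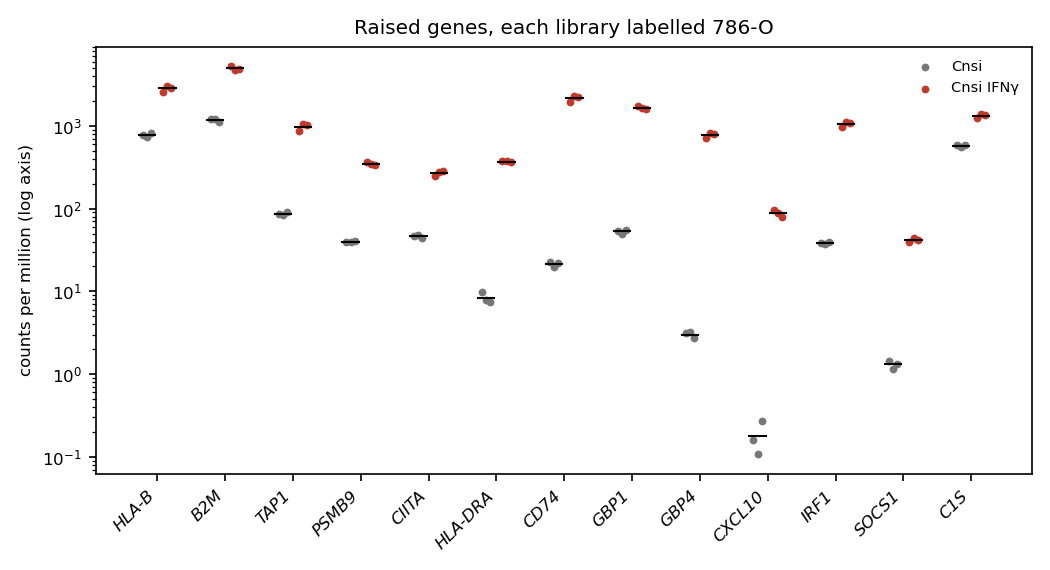
CPM (log axis) of 13 raised genes in each of the 3 Cnsi (grey) and 3 Cnsi IFNγ (red) libraries labelled 786-O, with a black bar at the mean of each group. In every gene the 3 IFNγ libraries sit above the 3 without IFNγ, from 2.30-fold on the means in *C1S* to 488-fold in *CXCL10*.

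The guanylate-binding proteins, GTPases that coat pathogens and their vacuoles, rose in all 6 tested members. *GBP1* was the most abundant, at 53.9, 49.5 and 55.8 CPM without and 1719, 1643 and 1625 with IFNγ (4.97 ± 0.057, adjusted p = 1.7e-28), and *GBP2* (4.08 ± 0.054) and *GBP3* (2.80 ± 0.056) also rose. *GBP7* had no count without IFNγ and 12 counts with it. Of 6 listed apolipoprotein L genes on chromosome 22, 4 were tested and all 4 rose, among them *APOL6* (3.23 ± 0.057), *APOL3* (4.52 ± 0.096) and *APOL2* (1.45 ± 0.046). *APOL1* was not measured.

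Antiviral interferon-stimulated genes rose in 38 of 40 tested, with a median of 2.21. The largest changes were in *RTP4* (6.61 ± 0.16) and in *IFITM1* (6.59 ± 0.089), a membrane protein that blocks viral entry, which went from 1.82, 1.25 and 1.82 to 152, 164 and 159 CPM. *MX2* (5.62 ± 0.20) rose more than *MX1* (3.29 ± 0.05), both dynamin-like GTPases. The antiviral restriction factors *SAMD9L* (4.03 ± 0.061) and *SAMD9* (1.56 ± 0.055), the tetratricopeptide proteins *IFIT3* (3.87 ± 0.057), *IFIT2* (2.66 ± 0.064) and *IFIT1* (2.51 ± 0.086), and *OAS3* (2.47 ± 0.048), an oligoadenylate synthetase, were raised. *SP140* had 0.42 ± 0.27 and was not called. The other uncalled gene of the list had -0.28, with an adjusted p under 0.05 but short of the size limit.

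Sensors of foreign nucleic acid and microbial products rose in 10 of 17. *RIGI* (2.74 ± 0.057) and *IFIH1* (2.60 ± 0.059), which detect viral RNA, went from 18.8 and 18.0 CPM to 126 and 109. *AIM2* and *ZBP1*, sensors of DNA and of Z-form nucleic acid, had 1 count each without IFNγ, and the ratio for *AIM2* was 67.1 (95% interval from counting error, 11.6 to 2695). *TLR4*, the receptor for bacterial lipopolysaccharide, rose by 2.50 ± 0.096, whereas *TLR1*, *TLR5* and *TLR6* were not called. The adaptors differed, with *STING1* raised by 0.71 ± 0.046 and *MAVS* at -0.082 ± 0.049.

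Members of the TRIM ubiquitin ligases rose in 9 of 11, with *TRIM31* by 4.14 ± 0.13 from 1.09 CPM, *TRIM22* from 106, 98.3 and 98.6 to 609, 621 and 636 CPM (2.62 ± 0.047) and *TRIM69* by 3.21 ± 0.057. In the PARP family 7 of 11 rose. The raised members were *PARP14* (3.21 ± 0.057), *PARP9* (2.62 ± 0.048), its partner *DTX3L* (1.89 ± 0.054) and *PARP12* (1.87 ± 0.048), and also *PARP3*, *PARP4* and *PARP10*. *PARP1*, the abundant enzyme of DNA repair, had 0.043 ± 0.048 and *PARP2* -0.037 ± 0.068. The ISG15 system rose along its length, with *ISG15* (2.58 ± 0.064), the activating enzyme *UBA7* (1.41 ± 0.054), the conjugating enzyme *UBE2L6* (2.55 ± 0.053), the ligase *HERC5* (0.91 ± 0.075) and the deconjugating protease *USP18* (2.40 ± 0.10).

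Chemokine genes rose in 11 of 15 tested and *CXCL14* fell (-0.87 ± 0.11). Beside the CXCR3 ligands already given, *CXCL11* went from 0.249 to 58.6 CPM (7.85 ± 0.14). *CX3CL1*, a membrane-bound chemokine that captures leukocytes, went from 1.82, 2.18 and 2.16 to 28.4, 27.2 and 25.4 (3.72 ± 0.10), *CCL2* from 13.2, 13.6 and 14.3 to 69.5, 85.9 and 80.1 (2.52 ± 0.076) and *CCL5* from 5.79, 5.00 and 5.04 to 34.0, 36.8 and 38.0 (2.78 ± 0.098). The neutrophil chemokine *CXCL8* stayed low, at 0.403 and 0.606 CPM, and was not called (0.58 ± 0.36). *CXCL1* was called at 0.72 ± 0.27, but its groups overlapped and 6 of 17 alternative fits lost the call.

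Of the cytokine genes, 10 of 13 rose. *IL15*, which sustains natural killer and memory T cells, went from 5.88, 5.68 and 5.90 to 21.1, 21.7 and 21.1 CPM (1.87 ± 0.091), and its receptor chain *IL15RA*, which presents it at the cell surface, rose by 2.89 ± 0.11. *IL6* went from 1.07 to 8.41 CPM (2.97 ± 0.18), *IL18* rose by 1.80 ± 0.091 and *IL7* by 1.63 ± 0.087. *IL18BP*, the secreted inhibitor of IL-18, rose further than its target, from 19.7, 18.6 and 15.6 to 248, 324 and 326 (4.06 ± 0.14). *CSF1*, the growth factor of macrophages and the most abundant of the list, went from 604 to 978 (0.70 ± 0.079), and *LIF* had -0.23 ± 0.061.

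Ligands of immune checkpoints and their relatives rose in 12 of 17 tested genes. *CD274*, which encodes PD-L1, had 3.87, 4.18 and 4.18 CPM in the Cnsi libraries and 55.7, 59.6 and 65.8 in the Cnsi IFNγ libraries (3.89 ± 0.089, adjusted p = 2.9e-22). *PDCD1LG2*, which encodes PD-L2, was scarcer, at 0.134 and 7.58 CPM (5.75 ± 0.29). *LGALS9*, which encodes the TIM-3 ligand galectin-9, went from 2.72, 2.32 and 2.54 to 96.9, 109.7 and 113 (5.39 ± 0.088), and *CD47*, the signal that restrains phagocytes, from 66.1 to 263 (1.99 ± 0.05). All 3 *BTN3A* genes, butyrophilins seen by gamma delta T cells, rose by 1.48 to 1.88. *CD276* (0.084 ± 0.08), *VSIR* (0.022 ± 0.06) and *PVR* (-0.31 ± 0.046) were not called.

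*TNFRSF14*, a receptor of the TNF family that binds BTLA on T cells, went from 0.184 to 21.2 CPM (6.83 ± 0.16), and *TNFSF13B*, the B cell factor BAFF, from 0.226 to 14.9 (6.02 ± 0.16). *TNFSF10*, the death ligand TRAIL, rose by 2.70 ± 0.057 and *CD40* by 1.32 ± 0.062. *TNFRSF10D*, a decoy receptor for TRAIL, fell from 69.9, 66.0 and 70.8 to 20.3, 26.7 and 27.0 CPM (-1.48 ± 0.076). Its signalling receptors *TNFRSF10A* (0.14 ± 0.067) and *TNFRSF10B* (-0.15 ± 0.06) were not called, nor was *FAS* (0.31 ± 0.064). Among stress ligands of natural killer cells, *MICB* rose (1.02 ± 0.093), *ULBP2* fell (-0.78 ± 0.10) and *MICA* had 0.078 ± 0.074.

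Complement, the cascade of plasma proteins that tags and lyses cells, is made in part by epithelium, and 9 of 15 tested genes rose. *C3*, its central component, went from 215, 201 and 208 to 919, 1128 and 1064 CPM (2.32 ± 0.06, adjusted p = 1.7e-20). The serine proteases of the first component, *C1S* and *C1R*, went from 578 and 139.6 to 1331 and 519.7 (1.20 ± 0.048 and 1.90 ± 0.054). Of the inhibitors, *SERPING1* rose from 4.73, 4.90 and 4.49 to 79.7, 88.9 and 88.6 (4.19 ± 0.07) and *CLU* by 0.87 ± 0.12, while the membrane inhibitors *CD46*, *CD55* and *CD59* were not measured. *C5* was the exception in the other direction, with -0.78 ± 0.11.

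Genes of programmed cell death rose in 13 and fell in 2 of 23 tested (11.1% and 7.39% over all genes tested). *CASP1*, which matures IL-1 and IL-18 and triggers pyroptosis, went from 7.26, 6.54 and 6.31 to 59.5, 59.5 and 59.5 CPM (3.15 ± 0.07), and *CASP4*, which senses bacterial lipopolysaccharide in the cytosol, rose by 1.67 ± 0.058. *MLKL*, the executor of necroptosis, rose by 1.89 ± 0.069, *GSDMB* by 1.56 ± 0.19, *BAK1* by 1.38 ± 0.048 and the initiator *CASP8* by 0.91 ± 0.061. *MCL1* and *CFLAR*, which restrain death, rose by 0.79 ± 0.05 and 0.52 ± 0.047 (the latter lost its call in 4 of 17 alternative fits), and *BCL2* fell by 0.94 on the log2 scale from 7.77 CPM.

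The signalling chain could be read in part, since *JAK2* and the receptor chains were not measured. *JAK1* was at 354 CPM and had -0.33 ± 0.056, and *STAT2* went from 74.9, 77.8 and 65.8 to 354, 374 and 400.2 (2.37 ± 0.062). *STAT6* rose by 0.64 ± 0.046. *IRF1* (chr5:132440440-132508719) was at 38.6, 37.8 and 39.2 CPM in the Cnsi libraries and at 979, 1105 and 1076 in the Cnsi IFNγ libraries (4.77 ± 0.057, adjusted p = 3.1e-28), with 22.9% of its exonic bases overlapped on the other strand. 7 of 8 tested factors of this family and its partners rose, among them *BATF2* (7.19 ± 0.09), *IRF7* (1.58 ± 0.067), *IRF2* (1.33 ± 0.058), which competes with IRF1 on DNA, and *IRF3* (0.94 ± 0.051). *IRF5* had 0.22 ± 0.084.

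Of 14 tested inhibitors of JAK-STAT signalling, 6 rose and 1 fell, with a median of 0.29 (11.1% raised and 7.39% lowered over all genes tested). *SOCS1*, which blocks JAK kinases, went from 1.44, 1.14 and 1.34 to 39.8, 44.5 and 42.1 CPM (5.00 ± 0.11, adjusted p = 9.9e-23). *SOCS3* rose by 1.04 ± 0.13 and the phosphatase *PTPN6* by 0.75 ± 0.054, whereas *SOCS2*, better known from growth hormone signalling, fell (-1.24 ± 0.17). *PIAS2*, *PIAS3* and *PIAS4*, which hold back STAT factors, were not called, and *PIAS1* was not measured. In the NF-κB system, *TNFAIP3* (2.28 ± 0.086) and *TRAF1* (2.27 ± 0.16), both targets and regulators of it, rose with *IKBKE* (1.06 ± 0.087) and *RELB* (0.75 ± 0.074), and *RELA* had 0.41 ± 0.05. Immediate early factors moved both ways, with *ATF3* (2.30 ± 0.061) and *KLF4* (1.93 ± 0.074) raised and *EGR1* lowered (-1.78 ± 0.42).

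In adhesion, *ICAM1*, the ligand of the T cell integrin LFA-1, went from 185, 177 and 186 to 1008, 1133 and 1107 CPM (2.57 ± 0.05), and *VCAM1* from 114 to 313 (1.46 ± 0.076). *NCAM1* fell from 22.3 to 6.64 (-1.74 ± 0.089) and *ALCAM* by 0.63 on the log2 scale from 417. Among epithelial genes *CLDN1*, a tight junction protein, rose (1.95 ± 0.055) and *OCLN* fell (-0.69 ± 0.14), and *SNAI1*, a repressor of epithelial genes, fell (-0.74 ± 0.057).

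**Figure D3:**
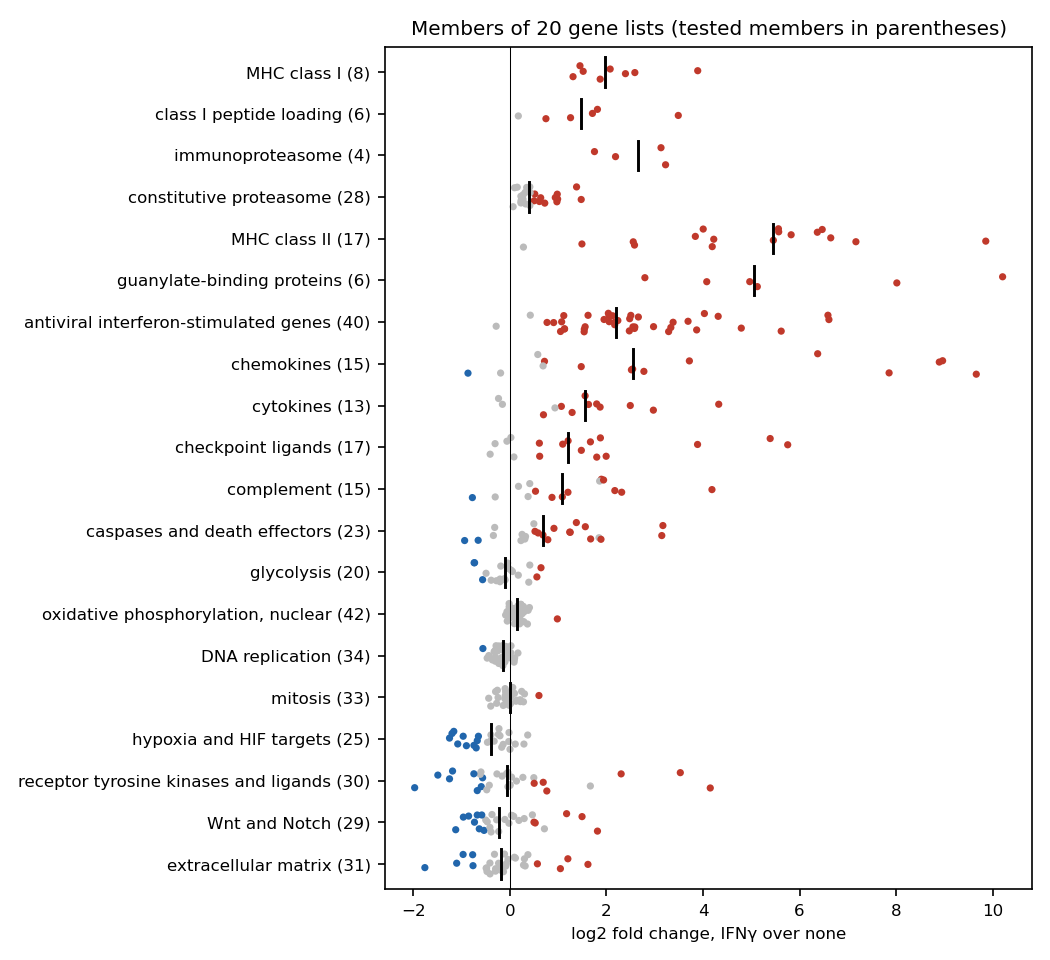
Log2 fold change of IFNγ over none (horizontal axis) for the tested members of 20 gene lists, with each point a gene, red where raised, blue where lowered and grey where not called, and a black bar at the median. The immune lists lie to the right, up to a median of 5.46 in MHC class II, and the lists of respiration and cell division lie around 0.

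Tryptophan is both a substrate of IDO1 and the amino acid that *WARS1* charges to its transfer RNA. *WARS1* went from 50.7, 52.1 and 54.9 to 2302, 2254 and 2129.9 CPM (5.41 ± 0.061). Of the other cytosolic aminoacyl-tRNA synthetases tested, *RARS1* (0.88 ± 0.046), *MARS1* (0.86 ± 0.053) and *EPRS1* (0.52 ± 0.05, a call lost in 4 of 17 alternative fits) rose and 7 of 11 in all were not called. Of 13 tested genes of tryptophan and kynurenine, 4 rose and 3 fell (11.1% raised and 7.39% lowered over all genes tested). Beside *IDO1*, *KYNU*, which cleaves kynurenine, rose (0.99 ± 0.065) and *TDO2*, the liver-type tryptophan dioxygenase, rose from 17.3 CPM (0.92 ± 0.079), as did *KYAT3*, a kynurenine aminotransferase (0.63 ± 0.086). *KMO*, which hydroxylates kynurenine, and *ACMSD*, further along the pathway, fell (-0.79 ± 0.06 and -0.68 ± 0.14). *SLC7A5*, the large neutral amino acid transporter, fell from 788, 777 and 811 to 366, 322 and 312 (-1.25 ± 0.052). *CD38*, which consumes NAD, had 2 counts without IFNγ and 3.55, 4.59 and 4.33 CPM with it. *ASS1*, which remakes arginine from citrulline, rose from 0.183 to 0.780 (2.07 ± 0.38), and *NOS2*, the inducible nitric oxide synthase, from 0.347 to 9.72 (4.78 ± 0.20).

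Of 20 tested genes of glycolysis, *HK1* (0.65 ± 0.066) and *HK2* (0.56 ± 0.082) rose, *ALDOC* (-0.74 ± 0.062), *PFKFB4* (-0.73 ± 0.09) and *SLC2A3* (-0.56 ± 0.18) fell, and the median was -0.11. Over all genes tested 11.1% rose and 7.39% fell. Whatever the size, 5 glycolysis genes had an adjusted p under 0.05 on the positive and 9 on the negative side. Over all genes tested these shares were 21.7% and 17.2%. A further 6, *SLC2A1*, *ALDOA* and *SLC16A1* among them, were not measured. The call on *SLC2A3* was lost in 6 of 17 alternative fits and that on *HK2* in 2. *GAPDH* had -0.02 ± 0.043, *PKM* 0.18 ± 0.044 and *LDHA* -0.28 ± 0.047. In the citric acid cycle *PC* fell (-0.76 ± 0.073) and the other 16 tested genes ran from -0.015 to 0.27. Of 42 nuclear genes of the respiratory chain *NDUFA9* rose (0.98 ± 0.12, from 5.20 CPM), while 22 had an adjusted p under 0.05 on the positive side whatever the size and 0 on the negative side. None of the 13 mitochondrially encoded genes was called. The median of the nuclear genes was 0.15 and that of the mitochondrial genes -0.14, and the shift of 0.13 between scalings is close to these values in size. In lipid synthesis, *STARD4* (1.18 ± 0.061) and *INSIG1* (0.88 ± 0.099) rose, while *FASN* and *SCD* were not called (0.19 and -0.095).

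The leading lowered genes are of mixed function. *IGFBP3* (chr7:45912245-45921874), which binds insulin-like growth factors in the medium, was by far the most abundant, at 2341, 2338 and 2603 CPM without and 630.2, 629.8 and 598 with IFNγ (-1.97 ± 0.05, adjusted p = 2.7e-21). *CHST2*, a sulfotransferase that acts on N-acetylglucosamine, went from 65.8, 68.9 and 71.4 to 12.8, 12.9 and 14.3 (-2.37 ± 0.062). *TNFAIP6*, a hyaluronan-binding protein, went from 25.6, 25.4 and 25.1 to 6.63, 6.29 and 5.99 (-2.01 ± 0.093). In each of the 3 the highest IFNγ library lay below the lowest library without IFNγ.

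*SEMA5B*, a semaphorin that guides axons, went from 2.49, 3.43 and 2.95 to 0.215, 0.185 and 0.315 CPM (-3.61 ± 0.26, adjusted p = 1.6e-11). *KCNMB4*, a regulatory subunit of calcium-activated potassium channels, had -2.85 ± 0.22 from 2.99 CPM, and *KCNJ3*, an inwardly rectifying potassium channel, -1.97 ± 0.16 from 4.97. *LMO1*, a LIM-domain transcriptional cofactor, went from 4.32, 3.97 and 4.595 to 0.537, 0.814 and 0.473 (-2.81 ± 0.18), and *GPER1*, a G protein-coupled oestrogen receptor, from 19.4, 18.8 and 19.4 to 4.55, 5.62 and 4.73 (-1.95 ± 0.086). *UNC5CL* went from 10.3, 11.3 and 9.53 to 2.22, 1.11 and 2.52 (-2.41 ± 0.17). *LONRF2* (-2.30 ± 0.12), *SLC44A5* (-2.186 ± 0.28), *WDR72* (-2.10 ± 0.21), *WFDC3* (-2.10 ± 0.17) and *NHERF4* (-1.94 ± 0.20) complete the protein-coding genes among the 20. The noncoding *LINC01151* went from 16.1, 17.5 and 16.7 to 1.25, 0.851 and 1.14 (-3.95 ± 0.14), and the small nucleolar RNA gene ENSG00000238901, opposite to it, cannot be told apart from it. *NRAD1* (-2.002 ± 0.15), ENSG00000272384, ENSG00000287900 and ENSG00000250615 are the other noncoding ones, the last wholly inside *ZBED3* on the other strand.

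**Figure D4:**
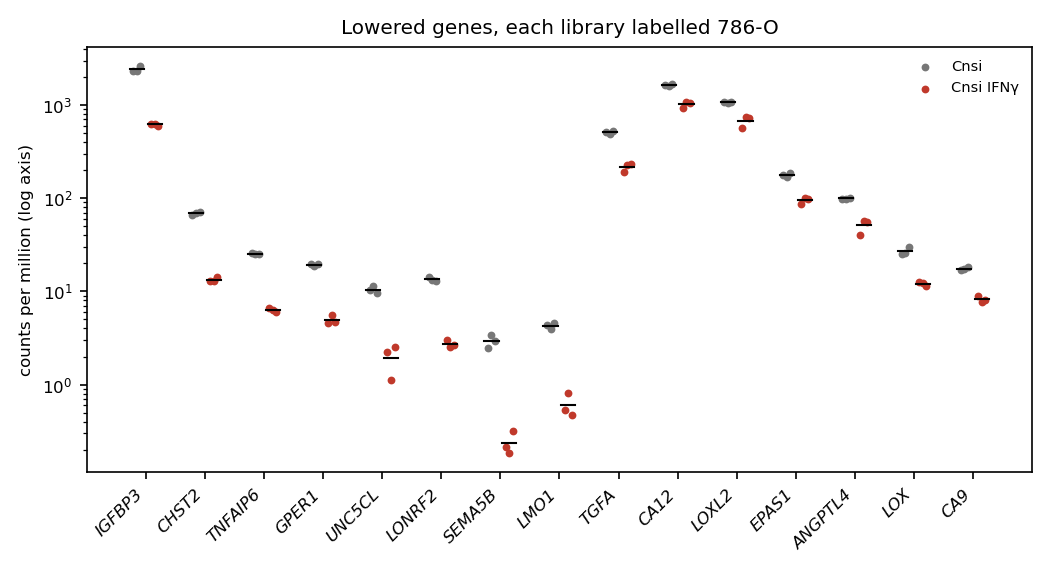
CPM (log axis) of 15 lowered genes in each of the 3 Cnsi (grey) and 3 Cnsi IFNγ (red) libraries labelled 786-O, with a black bar at the mean of each group. *IGFBP3* to *LMO1* are leading lowered genes and *TGFA* to *CA9* are from the list of hypoxia-inducible factors and their targets, and in every gene the 3 IFNγ libraries sit below the 3 without IFNγ.

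The hypoxia-inducible factors are active in clear cell renal carcinoma mostly through loss of the tumour suppressor VHL. In a list of these factors, their regulators and their targets, 10 of 25 tested genes were lowered, *EPAS1* among them, and none was raised (background 7.39% lowered), with a median of -0.39. *EPAS1*, which encodes HIF-2α, went from 179, 168 and 185 to 86.3, 101 and 98.2 CPM (-0.90 ± 0.056, adjusted p = 8.6e-13), and *HIF1A* had 0.37 ± 0.047. *TGFA*, a ligand of the EGF receptor, went from 519, 489.5 and 527 to 190.5, 225 and 231 (-1.25 ± 0.058, adjusted p = 4.2e-15). *CA12*, a cell-surface carbonic anhydrase, went from 1621, 1586 and 1697 to 933, 1079 and 1060.0 (-0.67 ± 0.052), and *CA9*, its paralog and a marker of clear cell tumours, from 17.5 to 8.27 (-1.08 ± 0.082). The matrix cross-linking oxidases *LOX* (-1.16 ± 0.077) and *LOXL2* (-0.65 ± 0.073), *ANGPTL4* (-0.97 ± 0.099), *HILPDA* (-1.20 ± 0.15), *STC1* (-0.70 ± 0.063) and *CXCR4* (-0.74 ± 0.048) fell too. *CCND1* (-0.46 ± 0.07), *PLIN2* (-0.39 ± 0.045), *ADM* (-0.17 ± 0.056) and *BNIP3* (-0.023 ± 0.05) were not called, and *VHL*, *VEGFA*, *EGLN3*, *NDRG1* and *SLC2A1* were not measured. 4 of the 10 fell by over 1.

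In a list of receptor tyrosine kinases, their ligands and IGF-binding proteins, 6 rose and 8 fell of 30 tested (11.1% raised and 7.39% lowered over all genes tested). The IGF-binding protein *IGFBP3* is among those that fell and *IGFBP6* among those that rose, the latter a call lost in 10 of 17 alternative fits. *FGFR4* (-0.56 ± 0.054) and *PDGFB* (-0.75 ± 0.088) fell. *MET*, the receptor of hepatocyte growth factor, rose from 773 to 1315 CPM (0.77 ± 0.067), and *HGF* itself went from 0.0533 to 0.700 (3.53 ± 0.64). In the Wnt and Notch pathways 8 genes fell and 5 rose of 29. *JAG1*, a Notch ligand, went from 109, 103 and 106 to 54.8, 65.1 and 56.0 (-0.85 ± 0.06) and *HES1*, a Notch target, fell (-0.58 ± 0.08), as did the Wnt antagonists *NKD2* (-1.12 ± 0.17) and *NKD1* (-0.96 ± 0.29), whose groups overlapped. *WNT5B* (1.495 ± 0.26) and *DLL1* (1.81 ± 0.24) rose from under 1 CPM. Under total-count scaling 3 of these genes rose and 12 fell.

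In the extracellular matrix single genes moved. *FN1*, fibronectin, went from 652, 642 and 631 to 1064, 1537 and 1377 CPM (1.05 ± 0.11) and *TNC*, tenascin C, from 37.5 to 115 (1.62 ± 0.081). *THBS2* (-0.97 ± 0.071) and *LTBP1* (-1.10 ± 0.094) fell, while *SPARC* had -0.039 ± 0.17 and *LAMB1* -0.084 ± 0.083. In all 4 of 31 tested rose, a share near the 11.1% of all genes tested, and 5 fell (7.39% of all genes tested). Of 17 listed semaphorin, plexin and neuropilin genes tested, 5 rose and 3 fell, with a median of -0.13. *SEMA3F* rose (2.89 ± 0.057), and *SEMA7A* (-0.71 ± 0.14) and *SEMA3B* (-0.80 ± 0.22) fell. *SEMA5B*, given above, is not in the list. Of amino acid and stress genes, *SLC7A11*, the cystine transporter, fell from 213 to 119.8 (-0.83 ± 0.051), *TRIB3* (-1.12 ± 0.046) fell, and *MTHFD2* (1.28 ± 0.051), *CEBPB* (1.48 ± 0.093) and *PSAT1* (0.90 ± 0.13) rose. *TXN*, thioredoxin, rose (0.79 ± 0.052) and *HMOX1* fell (-0.60 ± 0.045), while *NQO1* (0.096 ± 0.051) and *GCLM* (0.17 ± 0.049) were not called.

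Genes of the cell cycle hardly moved past the size limit. Of 34 replication genes *GINS4* fell (-0.56 ± 0.065), and of 33 mitotic genes *CDC25B* rose (0.60 ± 0.052), a call lost under total-count scaling. *MKI67*, the proliferation marker, was at 216, 233 and 225 CPM without and 209.7, 251 and 226 with IFNγ (0.025 ± 0.059, adjusted p = 0.78), and its groups overlapped. Whatever the size, 18 replication genes had an adjusted p under 0.05 on the negative side, against 1 on the positive side. Over all genes tested these shares were 17.2% and 21.7%. The median of -0.14 is again close in size to the shift between scalings. *GADD45A* fell (-0.88 ± 0.078) and *GADD45B* rose (1.26 ± 0.074). Among factors of the kidney lineage *HNF4G* rose (0.93 ± 0.068) and *PAX8* had 0.21 ± 0.056.

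The same treatment in cells with PD-L1 siRNA was read from a separate set of 6 libraries, fitted in one model with the Cnsi libraries. There 2332 genes rose (11.0%) and 1580 fell (7.45%), and 1866 of the 2347 raised and 1017 of the 1567 lowered genes of the Cnsi cells were called in the same direction, with none called in the opposite one. All 20 leading raised and all 20 leading lowered genes were called in the same direction. The IFNγ effects of the Cnsi and PD-L1si cells differed in 21 of 21209 genes (0.099%), 8 with a more positive (0.0377%) and 13 with a more negative (0.0613%) log2 effect under PD-L1si. Without single libraries this count ran from 8 (without PD-L1si replicate 3) to 40 (without Cnsi IFNγ replicate 1). *CX3CL1* rose by 3.72 in Cnsi and by 2.75 ± 0.098 in PD-L1si cells (difference -0.97, adjusted p = 0.0043), and *IFI6*, an antiviral gene, by 2.24 and 1.72 ± 0.074 (difference -0.52, adjusted p = 0.042). *ZNF395* fell in both, by 1.75 and by 1.19 on the log2 scale (difference 0.56, adjusted p = 0.0013). *L1CAM*, an adhesion molecule, rose by 1.00 in Cnsi and had 0.49 ± 0.055 in PD-L1si cells (difference -0.52, adjusted p = 0.0028).

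In the libraries labelled A498 the same comparison in Cnsi cells gave other sizes. Line, instrument and the doubt on the labels cannot be told apart there, and 17999 genes were tested in both lines. The IFNγ effects differed in 5105 genes (28.4%), with 2725 more positive (15.1%) and 2380 more negative (13.2%) in cells labelled 786-O than in cells labelled A498. Of the 20 leading raised genes, 7 had over 3 counts in each of the 4 groups compared, and all 7 differed. *GBP5* rose by 10.20 here and by 12.73 there (difference -2.53, adjusted p = 3.4e-07), and *CXCL10*, *GBP4* and *IDO1* also had the smaller rise here. *APOBEC3G* rose by 8.32 here and 2.01 there (difference 6.28, adjusted p = 3.2e-19), and *PIGR* by 8.41 and 4.39 (difference 4.01, adjusted p = 1.1e-09). Each rise is relative to the Cnsi group, whose counts also differed. Over 3 libraries, *APOBEC3G* had 5 counts without IFNγ here and 290 there, and 1555 and 1092 with it. *IDO1* had 56 and 10 without and 91818 and 41636 with IFNγ. *GBP5* had 37 and 26, then 40095 and 166792. *PIGR* had 7 and 29, then 2282 and 574. These totals are not scaled to library size. Of the 20 leading lowered genes, 13 could be compared, and 7 fell further here, 1 fell less and 5 did not pass the test of the difference. The leading genes were picked for the size of their change in the libraries labelled 786-O, which favours larger changes here. These counts therefore do not show which line responds more. *IGFBP3* fell by 1.97 on the log2 scale here and had -0.13 there (difference -1.84, adjusted p = 4.2e-25). *NRAD1* was the one that fell less here (difference 3.60, adjusted p = 2.2e-08). Its change there, from 225 to 4 counts over the libraries of each group, rests on those 4 counts.

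**Figure D5:**
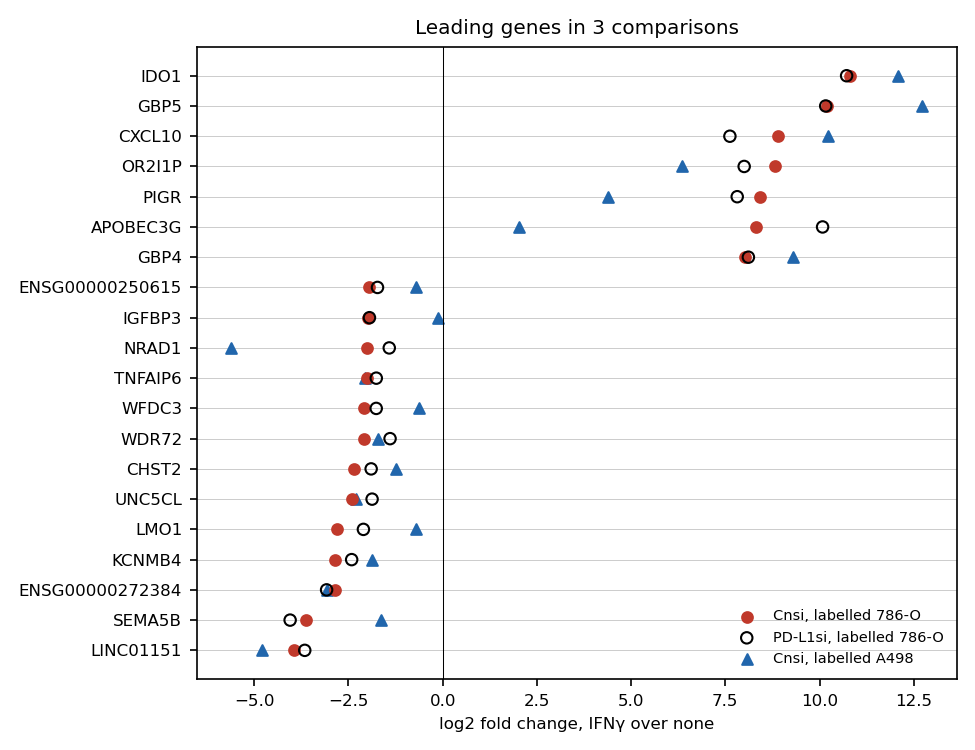
Log2 fold change of IFNγ over none (horizontal axis) for the 20 of the 40 leading genes that had over 3 counts in all 4 Cnsi groups of both lines, in Cnsi cells labelled 786-O (red), PD-L1si cells labelled 786-O (open circles) and Cnsi cells labelled A498 (blue triangles). The circles mostly lie near the red points. The triangles lie furthest from the red points for *APOBEC3G*, *PIGR* and *NRAD1*, the last with 4 counts in the Cnsi IFNγ group labelled A498. The difference between lines was also called in most of the other genes drawn, among them *GBP5*, *OR2I1P*, *LMO1*, *SEMA5B* and *IGFBP3*.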

How the data were processed

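RNA of 24 libraries was sequenced after poly(A) selection with a stranded kit, per the labels. Per the paper's methods, which the labels' tools match, the authors trimmed reads with Trimmomatic 0.36.6, aligned them to GRCh38 with HISAT2 2.1.0 and counted them on exons of GENCODE 33 genes with featureCounts 1.6.3. The deposited values are these raw counts, whole numbers without normalization. The number of columns without a sample was 0. Gene names, positions and biotypes came from GENCODE 44 by identifier (39148 of 39321 matched).

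The tests were run in edgeR 4.0.16 under R 4.3.3. Genes with at least 10 counts summed over the 3 libraries of a group were tested, with the 12 libraries labelled 786-O in one TMM-scaled quasi-likelihood fit with robust estimation. Both lines' libraries were fitted together for the difference between them. A gene was called where the Benjamini-Hochberg adjusted p was under 0.05 and the log2 change, up or down, exceeded 0.5. CPM (counts scaled to library size) are relative to TMM-scaled totals. The scripts were tested on simulated data. Replicates differed from each other by more than sampling noise, chi-square over its degrees of freedom being 1.97 to 16.4. Intervals and floors cover counting error only.

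Named genes were the 20 raised and 20 lowered genes with the largest changes among called genes with a mean of at least 1 CPM and groups that did not overlap, and any member of 55 gene lists and 5 marker lists. The comparison, the lists and their members were chosen with earlier results of these data known. The 6 libraries compared held 26807875 to 30245244 counts. Some members of the lists are counted but not reported here by name. Alternatives were DESeq2 1.42.0, other scalings, filters and thresholds, the replicate block and leaving out each library.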

Additional observations from a re-analysis of the deposited data

Results flagged for a closer look

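A test of the difference in IFNγ effect between PD-L1si and Cnsi cells labelled 786-O singled out 21 genes. The difference (PD-L1si minus Cnsi, log2) was 0.96 for *AASS*, 0.81 for *LHX8*, 0.72 for *OLFML3*, 0.70 for *SPX*, 0.65 for *LINC02532*, 0.62 for *SLC19A2*, 0.62 for *KLHL4* and 0.56 for *ZNF395*, the 8 on the positive side. For 12 of the 13 on the negative side it was -0.97 for *CX3CL1*, -0.83 for *OR2I1P*, -0.74 for *SFR1*, -0.71 for *STEAP1*, -0.71 for *PPP1R9A*, -0.69 for *KCTD12*, -0.67 for *BDKRB2*, -0.57 for *KLF7*, -0.57 for *ITGA2*, -0.55 for *IL4I1*, -0.52 for *IFI6* and -0.52 for *L1CAM*. The adjusted p ran from 0.0013 to 0.046. *AASS* had 0.12 ± 0.12 in Cnsi and 1.08 ± 0.14 in PD-L1si cells, and *SFR1* 0.72 ± 0.092 and -0.022 ± 0.093. Genes of these 21 that are outside the named lists were chosen after their values were seen.

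A test of the difference in IFNγ effect between the lines, in Cnsi cells, singled out 15 of the 20 leading genes with over 3 counts in every group. The difference (labelled 786-O minus labelled A498, log2) was -1.27 for *IDO1*, -2.53 for *GBP5*, -1.33 for *CXCL10*, -1.28 for *GBP4*, 2.47 for *OR2I1P*, 4.01 for *PIGR* and 6.28 for *APOBEC3G*. Among lowered genes it was -1.98 for *SEMA5B*, -0.99 for *KCNMB4*, -2.10 for *LMO1*, -1.14 for *CHST2*, -1.46 for *WFDC3*, 3.60 for *NRAD1*, -1.84 for *IGFBP3* and -1.23 for ENSG00000250615. The parts of line, instrument and label in these differences cannot be told apart. Each effect is relative to its Cnsi group, whose counts also differed, as in *APOBEC3G*. The difference of *NRAD1* rests on 4 counts in the Cnsi IFNγ group labelled A498. The genes were also picked for their change in the libraries labelled 786-O, which favours larger changes there.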

How the results depend on the processing

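The counts of raised and lowered genes stayed within 1.5 times their values under DESeq2, relative log expression, the newer edgeR fit, no robust estimation, the replicate block, no filter, filterByExpr and the fit of only the libraries compared. With protein-coding genes only, where fewer genes were tested, 1540 rose. Under total-count scaling, chosen after seeing the data, 1832 rose and 2523 fell. With the adjusted p alone 4595 rose and 3643 fell, and with a log2 fold change over 1 the counts were 1290 and 588. Without each library in turn, 2157 to 2297 rose and 1402 to 1586 fell.

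The 21 genes that differed between PD-L1si and Cnsi became 47 without a count filter, 46 with the adjusted p alone and 0 over a log2 difference of 1 (by edgeR, with 298 at an unadjusted p under 0.05, and 1 by DESeq2). By edgeR, 8 to 40 differed without each library in turn, with 8 without PD-L1si replicate 3, 10 and 13 without Cnsi replicates 1 and 2, 11 without PD-L1si IFNγ replicates 1 or 2, and 40 without Cnsi IFNγ replicate 1. DESeq2 gave 28. The 5105 genes that differed between lines became 8417 with the adjusted p alone and 2145 over 1, and 4866 to 5128 without each library.

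Same-numbered libraries did not deviate together (correlations of -0.0022, -0.15 and -0.11), so that the numbers were not taken as pairs. With the replicate number as a block 2318 genes rose, 1551 fell, 18 differed between siRNAs and 5082 between lines. Of 422 called named genes 369 kept their call in each of 17 alternative fits that held them, 53 lost it in at least 1, and none turned. Among calls named in the text, those on *HLA-G*, *CXCL1*, *SLC2A3*, *PSMB7*, *EPRS1*, *CFLAR*, *HK2*, *NKD1*, *FGFR4*, *IGFBP6*, *SEMA7A*, *PARP4* and *CDC25B* are of this kind. The cause of these changes was not tested beyond what is said here. Depth limits genes below about 1 CPM, where a few counts set the fold.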

Other observations

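Transporters of the proximal tubule and other solute carriers moved in single genes, 5 raised and 4 lowered of 16 tested (11.1% and 7.39% over all genes tested). *SLC22A2*, the organic cation transporter of the basolateral membrane, went from 0.288, 0.286 and 0.377 CPM in the Cnsi libraries to 19.0, 17.2 and 14.3 in the Cnsi IFNγ libraries (5.72 ± 0.16), with no overlap between groups. *SLC28A3*, a concentrative nucleoside transporter, had 1 count in the Cnsi group and 2.65, 3.07 and 3.31 CPM with IFNγ. *SLC15A3*, a lysosomal peptide and histidine transporter, went from 1.503, 1.32 and 1.44 to 17.9, 21.0 and 19.0 (3.76 ± 0.12), and *SLC25A28*, a mitochondrial iron carrier, from 21.1 to 78.2 (1.89 ± 0.072). *SLC5A2*, the glucose transporter SGLT2, was at 89.2, 83.6 and 84.0 CPM without and 73.3, 80.2 and 79.4 with IFNγ and was not called (-0.14 ± 0.05). *SLC17A3* (-1.41 ± 0.20) and the aquaporin *AQP3* (-1.22 ± 0.24) fell from 2.40 and 2.87 CPM.

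Counts in further lists stand beside 11.1% raised and 7.39% lowered over all genes tested. 8 of 16 tested cytokine receptors and decoys rose, as did 3 of 6 APOBEC3 deaminases, and none fell in either list. Of 22 targets of TGF-β and YAP 1 rose and 3 fell, and of 22 genes of glutamine and glutamate 2 rose and 4 fell. Of 15 chaperones of the endoplasmic reticulum 1 rose and none fell. The raised shares of the last 3 lists are below that of all genes tested. The lowered shares of the TGF-β and YAP list (13.6%) and of the glutamine and glutamate list (18.2%) are above it, on few genes.

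*MMP2*, a gelatinase, rose from 0.272 to 1.51 CPM (2.46 ± 0.30), and *PLAUR*, the urokinase receptor, from 31.9 to 59.7 (0.90 ± 0.077). *ADAMTS1*, a protease of matrix proteoglycans, fell from 36.0, 35.03 and 34.4 to 17.6, 19.9 and 21.4 (-0.84 ± 0.066). *MMP14* (-0.19 ± 0.048) and *TIMP2* (-0.14 ± 0.052), which act together in activating the MMP2 protein, were not called.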
